A study of Mus musculus with 6 samples.

Results

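Potassium channel genes were followed in cultured mouse cerebellar granule neurons in which the histone demethylase gene Kdm6b had been lowered. The set holds the 95 genes of the count table whose symbol starts with Kcn and a further letter, out of 23366 genes in all. By the letter of the symbol 40 are voltage-gated pores, 15 inward rectifiers, 14 tandem-pore channels, 11 calcium-activated channels and their close relatives, and 12 auxiliary subunits. The other 3 are Kcnrg and Kcnu1, which carry other letters, and Kcnq1ot1, a noncoding RNA antisense to Kcnq1. No symbol was left out as antisense. All 12 auxiliary genes, 36 voltage-gated, 14 inward rectifier, 10 tandem-pore, 10 calcium-activated and the 3 ungrouped genes passed the filter on low counts, 85 in all. The 10 that did not pass (Kcna10, Kcng3, Kcnv1, Kcnv2, Kcnj1, Kcnk7, Kcnk15, Kcnk16, Kcnk18 and Kcnmb3) had at most 10 counts in any library.

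The cells were C57BL/6 granule neurons purified on Percoll from cerebella of a litter at postnatal day 7 and plated in serum-containing neurobasal medium. On day 1 in vitro they received lentivirus. Controls (n = 3) carried the pLKO.1 vector with no insert and knockdowns (n = 3) the same vector with a Kdm6b hairpin, so a hairpin of unrelated sequence is not among the groups. Part of the study's cultures received BDNF; the sources used here do not name them. Gene counts per library ranged from 50326298 to 88214069, and the Kcn genes took 0.282% to 0.378% of them. Kdm6b itself stood at 257, 146 and 170 CPM in control replicates 1 to 3 and at 88.8, 63.3 and 79.8 CPM in the knockdowns, with no overlap (log2 fold change −1.31, SE 0.25, edgeR adjusted p = 0.216; with the replicate number as a block −1.28, SE 0.11, adjusted p = 0.0282). All 10 granule neuron markers were expressed, at a summed 3963 to 5707 CPM in controls against 4066 to 5942 CPM in knockdowns. With the replicate number as a block, 1 of these rose (Barhl1) and 1 fell (Etv1), both transcription factor genes. Markers of pericytes and fibroblasts summed to 11450 to 20680 CPM in controls against 3846 to 9728 CPM in knockdowns, without overlap, and 6 of the 10 genes fell. Most of this sum was collagen, with Col1a1, Col1a2 and Col3a1 at 3598, 2833 and 4237 of 11450 CPM in control replicate 1. Pdgfra, Lum, Dcn and Rgs5 did not pass. Of the other lists, 1 of 10 astrocyte, 2 of 10 oligodendrocyte lineage, 1 of 10 microglia, 1 of 4 tested Purkinje cell and 1 of 6 GABAergic interneuron markers fell, 0 rose, and 0 of 10 endothelial markers passed. All these marker calls are from the fit with the block, where 2.58% of all genes were called higher and 5.4% lower. Without the block 0 markers of any list were called. The part of these cell types in the differences below was not tested, and in bulk RNA fewer cells of a type cannot be told apart from less RNA per cell.

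Potassium channels let potassium leave or enter the cell and so set the resting potential, the shape of the action potential and the rate of firing. Voltage-gated members open on depolarisation, inward rectifiers pass current near rest and below, tandem-pore channels carry the background leak, and calcium-activated members follow intracellular calcium. Granule neurons in the cerebellum are known for a standing outward leak carried by acid-sensitive tandem-pore channels, which grows as the cells mature and holds them at a negative resting potential. They are also known for a fast A-type current through Kcnd channels and for inward rectifiers of the Kcnj family opened by G proteins.

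The channel genes spanned a wide range of levels. CPM is the usual depth-scaled count, here with library sizes corrected by the trimmed mean of M-values (TMM), and for comparison between genes it was divided by exon length in kilobases. In controls 13 of 95 members reached a mean of at least 10 CPM per kb, 30 lay between 1 and 10, and 52 were under 1. Kcnc1, a fast delayed rectifier that supports rapid firing, was highest at 76.0 ± 10.6 CPM per kb (SD, n = 3). Kcna1, a low-threshold delayed rectifier subunit of axons, followed at 72.2 ± 18.9 CPM per kb (SD, n = 3). The tandem-pore gene Kcnk1 came next at 63.4 ± 11.3 CPM per kb (SD, n = 3). The strong inward rectifier Kcnj12 (32.5), the A-type pore Kcnd2 (30.8), the acid-sensitive leak channel Kcnk3 (27.6) and Kcna2 (24.8 CPM per kb) followed. The control ranges of Kcnc1, Kcna1 and Kcnk1 overlapped from each to the next, as did those from Kcnj12 to Kcna2, so the order within these runs is that of the means only.

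**Figure D1:**
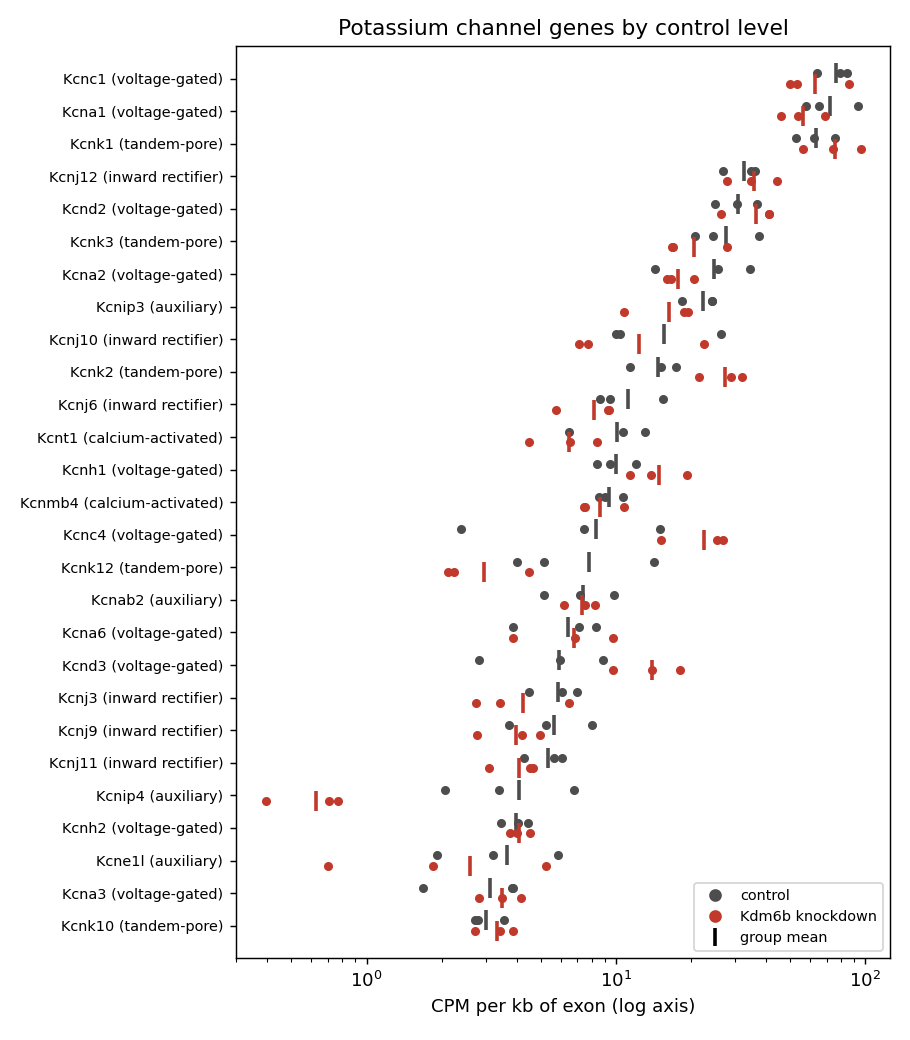
CPM per kb of exon (log axis) of Kcn genes with high control means, ordered by that mean, with 1 point per library (3 control, 3 knockdown) and a bar at each group mean. Kcnc1, Kcna1 and Kcnk1 have the 3 highest means in both groups, and the knockdown points of Kcnk2, Kcnc4 and Kcnd3 lie to the right of their control points and those of Kcnip4 to the left.

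With the replicate number as a block in the model 1 Kcn gene rose in the knockdown and 5 fell, out of 85 tested (7.06%), while 7.98% of all 15731 genes tested were called in that fit. The members' share lies near that of all genes and is not a result about the family. Among all genes 2.58% were called higher and 5.4% lower. The genes that fell were Kcnq3, Kcnh7, Kcnj15, Kcnk3 and Kcnn4, and the gene that rose was Kcnq5. Without the block no Kcn gene was called (edgeR quasi-likelihood test, Benjamini-Hochberg adjusted over all genes), against 0.00636% of all genes, and 13 of 85 (15.3%) had an unadjusted p under 0.05, against 10.6% of all genes. Without the block limma-voom called 0 Kcn genes and DESeq2 called 4, with Kcnk2 higher and Kcnip4, Kcnj15 and Kcnq3 lower, against 3.6% of all genes. Same-numbered libraries shared their deviations, so "rose" and "fell" refer to the blocked model throughout. All 6 calls were lost without replicate 1 (edgeR adjusted p from 0.0985 to 0.155), where 0% of all genes were called. They were also lost without replicate 2 (edgeR adjusted p from 0.0515 to 0.103), where 0.332% of all genes were called. Kcnj15, Kcnq5 and Kcnq3 kept their calls without replicate 3, where Kcnk3, Kcnh7 and Kcnn4 had edgeR adjusted p from 0.0571 to 0.0683. In that fit 8.06% of all genes were called.

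The fitted direction was split. Over the 85 tested genes 41 were fitted higher and 44 lower, with a median log2 fold change of −0.07, against 0.02 over all genes. The group medians were 0.05 for voltage-gated genes, −0.40 for inward rectifiers, −0.11 for tandem-pore, −0.21 for calcium-activated and −0.23 for auxiliary genes. Knockdown values did not overlap control values for 13 of the 85 (15.3%), 7 higher and 6 lower, against 16.7% of all genes (9.21% higher and 7.44% lower). The 7 higher were Kcnd3, Kcnc4, Kcnc2, Kcnh6, Kcnk2, Kcnj4 and Kcnmb2, and the 6 lower were Kcnq3, Kcnj15, Kcnn4, Kcnip4, Kcnab1 and Kcnt2.

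**Figure D2:**
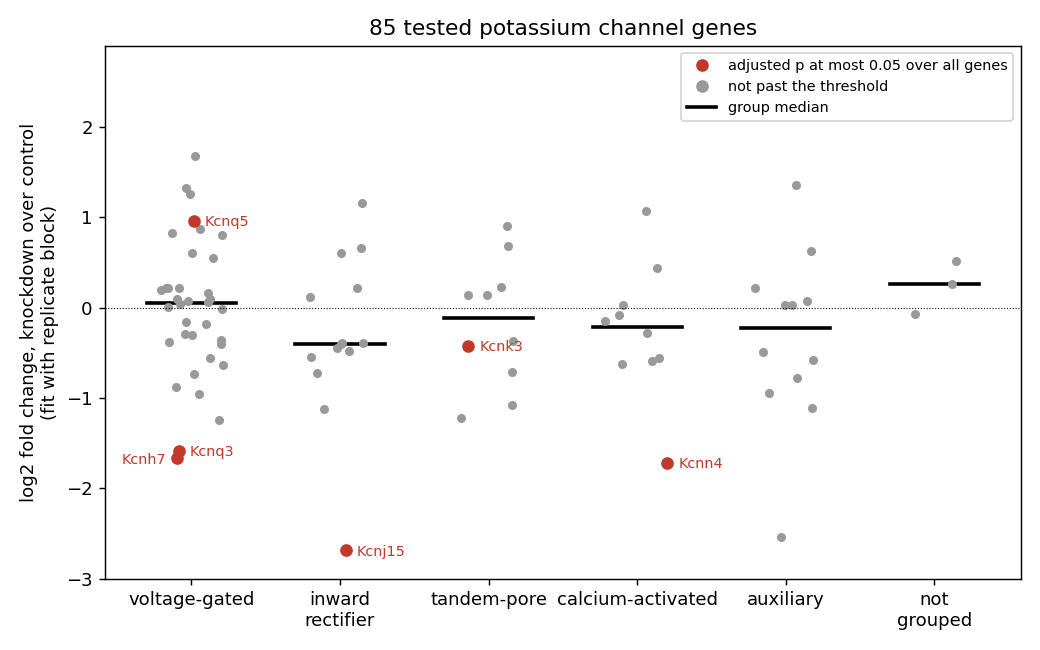
Blocked log2 fold change (knockdown over control) for the 85 tested Kcn genes, by group, with the group median as a black bar. The 6 red points are the genes called, Kcnq5 above 0 and the other 5 below, and medians ran from −0.40 in inward rectifiers to 0.05 in voltage-gated genes, with the 3 ungrouped genes at 0.26.

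Among voltage-gated pores 1 of 36 rose and 2 fell (8.33% called, near the 7.98% of all genes). The Kcnq genes encode the channels of the M-current, a slow current that restrains repetitive firing and is shut by muscarinic receptors, and in neurons Kcnq3 usually assembles with other Kcnq subunits. Kcnq3 was at 13.1, 23.1 and 12.7 CPM in control replicates 1 to 3 and at 4.62, 7.28 and 4.29 CPM in the knockdowns. Each knockdown library was below each control library, and the drop was of like size in the pairs, at −1.51, −1.67 and −1.57 on the log2 scale. Kcnq3 fell 2.99-fold (log2 fold change −1.58, SE 0.11, edgeR adjusted p = 0.0282; 0.249 without the block). Its small standard error with the block put it at the lowest adjusted p of the family.

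Kcnq5 went the other way. It was at 32.8, 5.74 and 21.9 CPM in controls against 61.4, 16.02 and 32.2 CPM in knockdowns, higher in each of the 3 pairs although the groups overlapped. Replicates within a group ranged more widely than the group means lay apart, and replicate 2 was low in both groups. Kcnq5 rose 1.95-fold (log2 fold change 0.96, SE 0.19, edgeR adjusted p = 0.0498; 0.690 without the block), close to the threshold, and with RLE scaling it no longer passed (edgeR adjusted p = 0.0502).

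Kcnh7, an ether-a-go-go related (ERG) channel that contributes to repolarisation, fell as well. Its values were low, at 3.50, 3.58 and 1.64 CPM in controls against 1.69, 0.835 and 0.424 CPM in knockdowns. The lowest control lay just under the highest knockdown, so the groups overlapped, and each pair showed a drop. Kcnh7 fell 3.17-fold (log2 fold change −1.67, SE 0.29, edgeR adjusted p = 0.0433; 0.454 without the block). Its relative Kcnh2, at 19.3 ± 2.42 CPM in controls against 19.9 ± 1.95 CPM in knockdowns (SD, n = 3), had a log2 fold change of 0.04 (SE 0.08). Kcnh1, an ether-a-go-go channel also linked to proliferating cells, was at 88.6, 69.2 and 61.8 CPM in controls against 102, 141 and 83.6 CPM in knockdowns, higher in each pair but not past the threshold (log2 fold change 0.55, SE 0.17, edgeR adjusted p = 0.101).

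**Figure D3:**
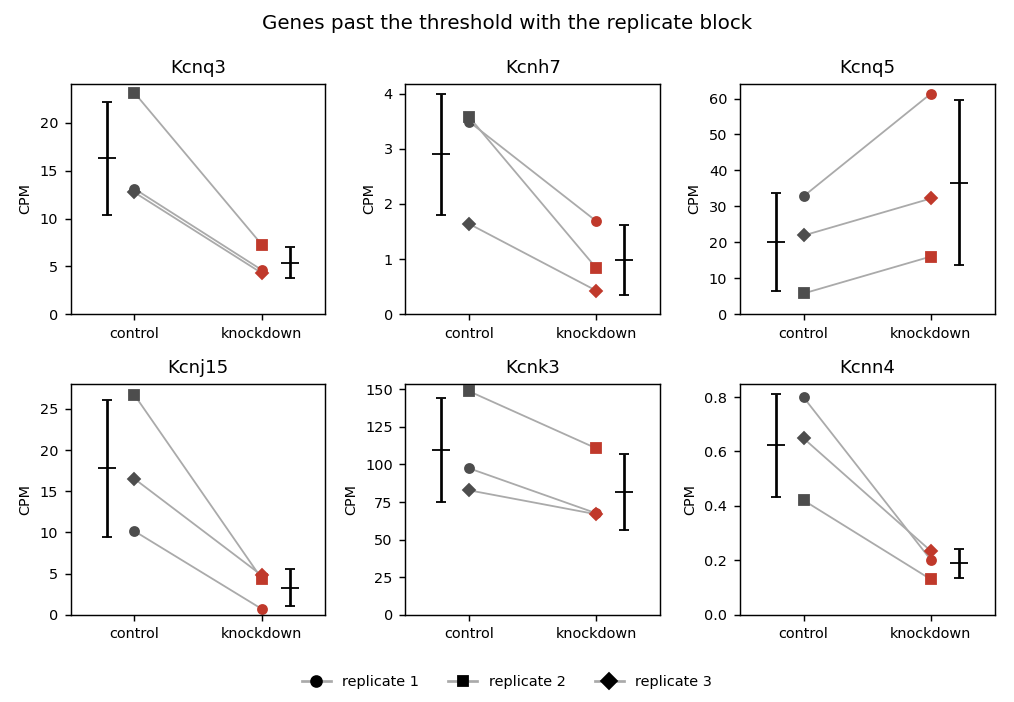
CPM (linear axes from 0) of the 6 genes called with the replicate block by library; lines connect libraries that share a replicate number and black bars give mean and SD (n = 3). Kcnq3, Kcnh7, Kcnj15, Kcnk3 and Kcnn4 were lower and Kcnq5 higher in the knockdown in all 3 pairs, while the groups of Kcnk3, Kcnh7 and Kcnq5 overlapped.

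The 3′ UTRs of Kcnq3 and Kcnh7 share a 7-base word with the hairpin. It is shown because both genes fell and because among all genes the word was more common in those called lower. The hairpin strand given in the labels, with the word (bases 8 to 14 from its 5′ end) in capitals, and the sites in both genes on the transcript strand, GRCm38, read:
hairpin strand: gttcgttACAAGTGagaactc
Kcnq3 site, chr15:65986581-65986610, minus strand: acaactattccACAAGTGccctttagtgct
Kcnh7 site 1, chr2:62698372-62698401, minus strand: taattgtagctACAAGTGtcccttaatgtt
Kcnh7 site 2, chr2:62693915-62693944, minus strand: atcataagattACAAGTGgacttgatttgt
In the longest GENCODE M21 3′ UTR of each gene, searched on the transcript strand only, ACAAGTG was present in 13 of 84 tested Kcn genes (15.5%) and 12.5% of all tested genes. It was in 2 of the 5 Kcn genes that fell and not in Kcnq5. Over all genes it was in 30% of those called lower and 5.8% of those called higher. Both 3′ UTRs are long (8787 and 9535 bases); length was not matched in these shares. The word was chosen with results of these data known, so the shares restate that choice, and its part in the 2 differences was not tested. Other Kcn genes with the word were fitted in both directions. Kcnj5, whose 3′ UTR holds it 3 times, was fitted higher (log2 fold change 1.16, SE 0.28, edgeR adjusted p = 0.0654), as was Kcnk9 with 2 sites. Kcnb2 (−0.55) and Kcnk6 (−0.72), with 1 site each, were fitted lower.

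The A-type pores Kcnd2 and Kcnd3 give granule neurons their fast transient current. Kcnd3 was at 85.4, 27.1 and 57.4 CPM in controls against 174, 134 and 93.2 CPM in knockdowns, with no overlap. The rise in the pairs ranged from 0.70 to 2.31 on the log2 scale, replicate 2 being furthest apart, and Kcnd3 did not pass the test (log2 fold change 1.33, SE 0.33, edgeR adjusted p = 0.0695). Kcnd2 was more abundant and moved less, at 159 ± 30.1 CPM in controls against 187 ± 43.7 CPM in knockdowns (SD, n = 3; log2 fold change 0.22, SE 0.09, edgeR adjusted p = 0.164).

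Kcnc genes encode high-threshold channels, some of them known from fast-spiking cells. Kcnc4 was at 55.1, 8.77 and 27.3 CPM in controls against 93.0, 98.5 and 55.6 CPM in knockdowns, groups that did not overlap by a narrow margin. It had the highest fitted log2 fold change of the 85 (1.68, SE 0.59), but the pairs ranged from 0.76 to 3.49 and it did not pass (edgeR adjusted p = 0.126). Kcnc2, low throughout at 1.08 ± 0.453 and 2.63 ± 1.05 CPM (SD, n = 3), had a log2 fold change of 1.26 (SE 0.36, edgeR adjusted p = 0.0877). The abundant Kcnc1 was at 719 ± 100.1 CPM in controls against 596 ± 192 CPM in knockdowns (SD, n = 3), a difference within the spread of the knockdown replicates (log2 fold change −0.31, SE 0.14, edgeR adjusted p = 0.196).

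Several Kcna genes encode low-threshold channels clustered along axons, and no Kcna gene tested passed. Kcna1 was at 311, 447 and 277 CPM in controls against 257, 330 and 219 CPM in knockdowns. Each pair showed a small drop and the groups overlapped (log2 fold change −0.35, SE 0.07, edgeR adjusted p = 0.0562). Kcna2 was at 295 ± 119 and 211 ± 29.3 CPM, lower in pairs 1 and 3 and higher in pair 2 (SD, n = 3; log2 fold change −0.41, SE 0.19, edgeR adjusted p = 0.209). Kcna6, whose exons overlap an antisense gene over 39.6% of their length, had a log2 fold change of 0.06 (SE 0.09). The delayed rectifier Kcnb2 (log2 fold change −0.55, SE 0.17) did not pass, nor did the silent modifier subunit Kcnf1 (0.83, SE 0.22) or the ERG channel Kcnh6 (0.81, SE 0.26).

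Inward rectifiers had the lowest group median, and 1 of 14 tested fell (7.14% called, near the 7.98% of all genes). Kcnj15 was at 10.2, 26.7 and 16.5 CPM in controls against 0.704, 4.38 and 4.79 CPM in knockdowns, with every knockdown library below every control. The drop within pairs ran from −1.79 in replicate 3 to −3.85 in replicate 1. Kcnj15 fell 6.43-fold (log2 fold change −2.68, SE 0.41, edgeR adjusted p = 0.0380; 0.382 without the block), the lowest fitted value of the family. Exons of an antisense gene cover 5.28% of its exon bases, and whether counting used strand is not known here.

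Promoter sequence differed between genes that fell. Of the 95 members 70 have a start in the RefSeq promoter table (GRCm38.p6). Kcnq3 and Kcnk3 have none there. The 200 bases before the start are shown for the 3 others that fell, with CG pairs in capitals, because they run from CG-poor to CG-rich:
Kcnj15, chr16:95257358-95257557, plus strand: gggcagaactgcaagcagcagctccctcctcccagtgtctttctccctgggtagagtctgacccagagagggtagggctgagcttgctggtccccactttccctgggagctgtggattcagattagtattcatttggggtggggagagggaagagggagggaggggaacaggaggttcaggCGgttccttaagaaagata
Kcnn4, chr7:24370063-24370262, plus strand: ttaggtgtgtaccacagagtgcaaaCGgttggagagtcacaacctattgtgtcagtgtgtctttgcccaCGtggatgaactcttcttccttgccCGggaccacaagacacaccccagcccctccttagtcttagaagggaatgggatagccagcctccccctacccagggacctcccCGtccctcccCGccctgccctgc
Kcnh7, chr2:63184288-63184487, minus strand: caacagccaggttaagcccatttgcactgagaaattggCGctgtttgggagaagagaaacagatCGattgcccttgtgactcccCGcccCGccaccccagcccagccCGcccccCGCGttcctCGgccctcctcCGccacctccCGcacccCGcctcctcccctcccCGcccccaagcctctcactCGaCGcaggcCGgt
The windows of Kcnj15, Kcnn4 and Kcnh7 hold 1, 5 and 15 CG pairs, and the median over the 32851 windows of the table is 5. The GC box GGGCGG, searched on both strands, is present in those of Kcnn4 and Kcnh7 and in 31% of all windows. These are descriptions of the letters, and the data here do not measure chromatin at these starts.

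The inward rectifiers opened by G proteins are Kcnj3, Kcnj5, Kcnj6 and Kcnj9, and they let inhibitory receptors silence a neuron. Kcnj6 was at 118, 65.9 and 72.3 CPM in controls against 71.7, 71.2 and 43.9 CPM in knockdowns, lower in 2 of 3 pairs (log2 fold change −0.44, SE 0.19, edgeR adjusted p = 0.175). Kcnj9 (24.3 ± 9.26 to 17.0 ± 4.72 CPM, SD, n = 3) and Kcnj3 (30.5 ± 6.59 to 22.02 ± 10.4 CPM, SD, n = 3) had log2 fold changes of −0.48 (SE 0.18) and −0.54 (SE 0.23). Kcnj5 was low and differed mostly by replicate, at 4.65, 0.380 and 1.01 CPM in controls against 14.5, 0.891 and 1.43 CPM in knockdowns, higher in each pair. None of the 4 passed. An antisense gene overlaps 31.1% of the exon bases of Kcnj3.

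The abundant Kcnj12, a strong inward rectifier that clamps the resting potential, was at 89.5 ± 13.7 and 97.9 ± 22.3 CPM (SD, n = 3; log2 fold change 0.12, SE 0.10). Its relatives Kcnj2 (−1.12, SE 0.49) and Kcnj4 (0.60, SE 0.25) were lower in level and did not pass. Kcnj11, the pore of the ATP-sensitive channel that links metabolism to excitability, was at 22.3, 20.9 and 15.7 CPM in controls against 16.6, 17.1 and 11.4 CPM in knockdowns, lower in each pair (log2 fold change −0.39, SE 0.09, edgeR adjusted p = 0.0606).

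Some members are known from cells other than neurons. Kcnj10, the main potassium-buffering channel of astrocytes, was at 56.0, 54.1 and 143 CPM in controls against 38.3, 41.6 and 121 CPM in knockdowns. Replicate 3 was high in both groups, where astrocyte and Bergmann glia markers also summed highest (3276 and 3433 CPM against 699 to 1604 CPM in the other libraries). Kcnj10 did not pass (log2 fold change −0.39, SE 0.08, edgeR adjusted p = 0.0578), and its partner Kcnj16 had −0.41 (SE 0.25). Kcnj8, which marks pericytes and smooth muscle, was at 2.78, 0.160 and 0.572 CPM in controls against 3.19, 0.167 and 0.717 CPM in knockdowns, a log2 fold change of 0.22 (SE 0.22). Of the 10 pericyte and fibroblast markers 6 fell and 0 rose (median log2 fold change −1.18). Besides Col1a1, Col1a2 and Col3a1 these were Pdgfrb (−1.34), Cspg4 (−1.59) and Acta2 (−1.01), with edgeR adjusted p of 0.0282, 0.0455 and 0.0362. The pericyte marker Rgs5 did not pass. It was at 5.05, 9.59 and 6.31 CPM in controls against 4.27, 21.3 and 7.93 CPM in knockdowns. Kcnj13, Kcnk6, Kcnk13 and Kcne4, each under 2 CPM in every library, did not pass, with log2 fold changes from −0.72 to 0.07.

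Tandem-pore channels had 1 of 10 tested genes that fell (10% called, against 7.98% of all genes). Kcnk3 and Kcnk9 encode the acid-sensitive (TASK) leak channels of granule neurons. Kcnk3 was at 97.4, 149 and 82.8 CPM in controls against 67.5, 111 and 66.8 CPM in knockdowns. The groups overlapped and each pair showed a drop of like size, from −0.31 to −0.53 on the log2 scale. Kcnk3 fell 1.34-fold (log2 fold change −0.42, SE 0.07, edgeR adjusted p = 0.0440; 0.633 without the block). Its call was lost when libraries were scaled by their totals alone (log2 fold change −0.35, edgeR adjusted p = 0.0910), and an antisense gene covers 5.76% of its exon bases.

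Kcnk9 was at 48.3, 24.4 and 23.8 CPM in controls against 62.4, 66.7 and 28.2 CPM in knockdowns, higher in each pair but mainly in replicate 2 (log2 fold change 0.68, SE 0.26, edgeR adjusted p = 0.141). Kcnk2, the stretch- and lipid-sensitive (TREK) leak channel, was at 86.3, 56.5 and 75.2 CPM in controls against 143, 158 and 107 CPM in knockdowns. Every knockdown library was above every control. Its log2 fold change of 0.90 (SE 0.20) did not pass with the block (edgeR adjusted p = 0.0606), while DESeq2 called it without the block (log2 fold change 0.89, DESeq2 adjusted p = 0.0188). Kcnk1 (142 ± 25.3 and 169 ± 44.2 CPM, SD, n = 3) and Kcnk10 (26.5 ± 4.13 and 29.3 ± 5.07 CPM, SD, n = 3) overlapped between groups and did not pass. Kcnk12 was at 27.9 CPM in control replicate 2 and between 4.20 and 10.1 CPM in the other libraries (log2 fold change −1.22, SE 0.53).

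**Figure D4:**
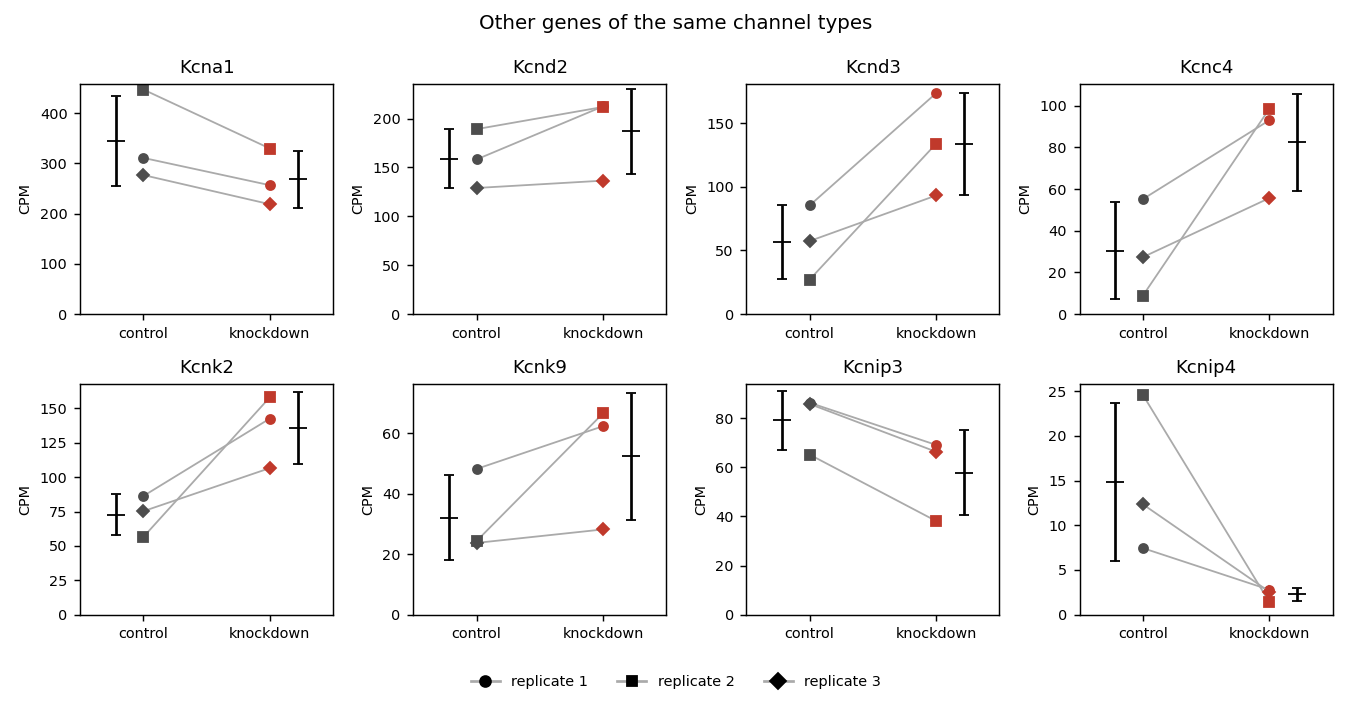
CPM (linear axes from 0) of 8 Kcn genes that did not pass the test with the block, drawn as pairs by replicate number, with black bars for mean and SD (n = 3). Knockdown values of Kcnd3, Kcnc4 and Kcnk2 lie above and those of Kcnip4 below all control values, and replicate 2 has the steepest line in each of these 4 genes.

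Among calcium-activated channels 1 of 10 tested fell (10% called, against 7.98% of all genes). Kcnn4 encodes the intermediate-conductance channel, known from immune and other non-excitable cells. It was at the bottom of the range, with 58, 21 and 34 counts in controls against 18, 7 and 16 in knockdowns, or 0.799, 0.420 and 0.648 CPM against 0.201, 0.130 and 0.234 CPM. No knockdown library reached the lowest control. Kcnn4 fell 3.29-fold (log2 fold change −1.72, SE 0.30, edgeR adjusted p = 0.0430; 0.307 without the block). Microglia markers summed to 109, 43.8 and 89.7 CPM in controls against 9.86, 14.6 and 52.6 CPM in knockdowns, lower in each pair. Their part in the difference of Kcnn4 was not tested. Of the 10 microglia markers 1 fell (Tmem119) and 0 rose (median log2 fold change −2.01). Tmem119 gave most of the sum in replicate 2, at 42.7 of 43.8 CPM in the control and 13.85 of 14.6 CPM in the knockdown. Most other microglia markers were near absent in that replicate, and P2ry12 was fitted higher (log2 fold change 0.23, SE 0.32).

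The other calcium-activated genes are more typical of neurons. Kcnma1, the large-conductance (BK) pore, was at 24.2 ± 3.48 and 20.0 ± 3.32 CPM (SD, n = 3), lower by a like amount in each pair (log2 fold change −0.28, SE 0.08, edgeR adjusted p = 0.0854). Its neuronal beta subunit Kcnmb4 was at 31.3 ± 3.70 and 28.6 ± 6.27 CPM (SD, n = 3), with antisense genes over 31.5% of its exon bases. The scarce Kcnmb2, a beta subunit that inactivates the channel, was at 0.689 ± 0.0250 and 1.53 ± 0.562 CPM (SD, n = 3; log2 fold change 1.07, SE 0.31, edgeR adjusted p = 0.0869). The small-conductance channel gene Kcnn2 had a log2 fold change of −0.55 (SE 0.30). The sodium-activated channel Kcnt1 was at 124, 101 and 61.8 CPM in controls against 79.8, 42.4 and 62.1 CPM in knockdowns, lower in pairs 1 and 2 and level in pair 3 (log2 fold change −0.63, SE 0.25). Kcnt2 was at 10.3 ± 2.65 and 6.69 ± 0.277 CPM (SD, n = 3), with groups that did not overlap (log2 fold change −0.59, SE 0.19, edgeR adjusted p = 0.106).

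No auxiliary gene of the 12 tested passed (0%, against 7.98% of all genes). Of the 12, 5 had an unadjusted p under 0.05 in the edgeR fit with the block (41.7%, against 34.1% of all genes). Kcnip proteins are calcium sensors that bind Kcnd pores and tune the A-type current. Kcnip4 was at 7.45, 24.6 and 12.3 CPM in controls against 2.79, 1.43 and 2.58 CPM in knockdowns, each knockdown well below each control. Its fitted log2 fold change was −2.54 (SE 0.55), a 5.80-fold difference, with pairs from −1.41 to −4.11, and it missed the threshold (edgeR adjusted p = 0.0571; 0.215 without the block). DESeq2 called it without the block (log2 fold change −2.72, DESeq2 adjusted p = 2.43e-05). Kcnip3, the most abundant of the 4, was at 79.0 ± 12.0 and 57.8 ± 17.1 CPM (SD, n = 3), lower in each pair (log2 fold change −0.49, SE 0.11, edgeR adjusted p = 0.0622). Kcnip1 (−0.58, SE 0.48) and Kcnip2 (0.03, SE 0.65) varied more between replicates than between groups.

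Kcnab genes encode beta subunits of Kcna channels. Kcnab1 was at 9.86, 29.9 and 10.0 CPM in controls against 8.62, 6.22 and 5.36 CPM in knockdowns, without overlap and with control replicate 2 far above the rest (log2 fold change −1.11, SE 0.42, edgeR adjusted p = 0.141). Kcnab2 was at 41.2 ± 13.2 and 40.9 ± 5.84 CPM (SD, n = 3; log2 fold change 0.03, SE 0.15). Kcne3 followed the replicate number rather than the group, at 1.94, 0 and 0.114 CPM in controls against 2.94, 0 and 0.190 CPM in knockdowns. The noncoding Kcnq1ot1 was at 76.6 ± 31.9 and 86.8 ± 10.6 CPM (SD, n = 3; log2 fold change 0.26, SE 0.17).

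Summed over all members of a group, levels are set by the few most abundant genes. Inward rectifiers summed to 377, 342 and 380 CPM in controls against 304, 297 and 301 CPM in knockdowns, with no overlap. Without Kcnj10, which was highest in the replicate 3 libraries where astrocyte markers also summed highest, the sums were 321, 288 and 237 CPM in controls against 265, 256 and 179 CPM in knockdowns, and the groups overlapped. Those sums were still lower in the knockdown in each pair. Auxiliary genes summed to 164, 198 and 156 CPM in controls against 153, 102 and 131 CPM in knockdowns, without overlap by a narrow margin. This sum was not repeated with a gene left out. Voltage-gated genes summed to 2243 ± 301 and 2142 ± 377 CPM (SD, n = 3), tandem-pore genes to 403 ± 57.2 and 477 ± 99.6 CPM, and calcium-activated genes to 178 ± 31.2 and 132 ± 20.2 CPM. The groups overlapped in these 3 sums.

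**Figure D5:**
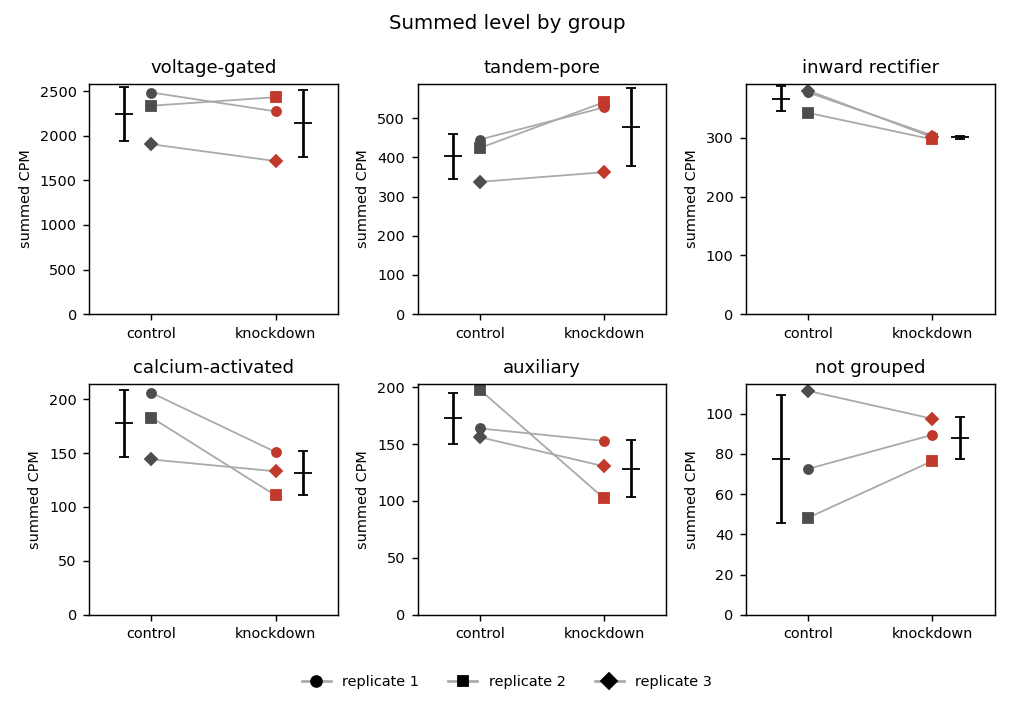
Summed CPM of all members of each group of Kcn genes in each library (linear axes from 0), with lines between libraries sharing a replicate number and black bars for mean and SD (n = 3). Inward rectifiers (342 to 380 CPM in controls, 297 to 304 CPM in knockdowns) and auxiliary genes are the sums whose groups do not overlap. The former do so only with Kcnj10 included, and the latter by a narrow margin (156 CPM in control replicate 3 against 153 CPM in knockdown replicate 1).

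Partners outside the Kcn names were read from a list. It held 16 channel partners, among them the Kcnd auxiliary subunits Dpp6 and Dpp10, and the sulfonylurea receptors Abcc8 and Abcc9. Of the 16 partners 14 were tested, and 0 rose and 0 fell (median log2 fold change −0.03). Among all genes 7.98% were called, so 0 calls in so few genes do not show an absence of change. Dpp6 was at 484, 303 and 307 CPM in controls against 664, 378 and 374 CPM in knockdowns, higher in each pair (log2 fold change 0.35, SE 0.08, edgeR adjusted p = 0.0607). Cntnap2, which clusters Kcna channels on axons, was at 70.4, 42.5 and 67.9 CPM in controls against 87.4, 107 and 94.2 CPM in knockdowns, with no overlap (log2 fold change 0.70, SE 0.21, edgeR adjusted p = 0.0983). The partner Adam22 went the other way, also with no overlap. It was at 455, 362 and 435 CPM in controls against 326, 320 and 353 CPM in knockdowns (log2 fold change −0.32, SE 0.09, edgeR adjusted p = 0.0874). Of 10 pump subunits and cation-chloride cotransporters, the proteins that build the ion gradients, 0 rose and 0 fell (median log2 fold change −0.13). The same limit of few genes against 7.98% of all genes called holds for this list. Their summed level was 4860 to 4992 CPM in controls against 4695 to 4919 CPM in knockdowns.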

How the data were processed

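Stranded mRNA of 6 libraries was sequenced, and the authors deposited whole-number read counts per gene in 1 table, not normalized. The submitters' processing notes name Trimmomatic, TopHat2, HTSeq, edgeR, DESeq2 and build mm9. The sources used here give no versions, annotation or strand setting. Tallies that name no gene (12.1% to 15.0% of counts outside genes, 16.0% to 19.3% not uniquely aligned) were left out.

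Counts were fitted over all genes with edgeR 4.0.16 in R 4.3.3 (filterByExpr, minimum count 10, minimum total 15; TMM; quasi-likelihood F test; Benjamini-Hochberg at 0.05). SE was taken as |log2 fold change| over √F. The planned fit has no replicate term. The design text gives 3 against 3 biological replicates and no pairing. The labels do not tie the replicate numbers to cultures, and p-values then reflect only how far these samples vary. Deviations of same-numbered libraries from their group means correlated across genes at 0.828, 0.659 and 0.773 (other pairings −0.573 to 0.0577), a pairing drawn from these data, and a blocked model is given for that reason. Libraries within a group differed beyond sampling noise (chi-square over its degrees of freedom, 182 to 405). An exact permutation test of 3 against 3 cannot go below p = 0.1.

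Alternatives were RLE, upper-quartile and no scaling factors, 2 other filters, DESeq2 1.42.0, limma-voom (limma 3.58.1), the block, and leaving out libraries or pairs. Exon lengths, antisense overlaps and 3′ UTRs were matched by name to GENCODE M21 (GRCm38), which held all 95 members.

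Members and lists were chosen with earlier results of these data known. Named genes are those called in either fit, the 3 most abundant and the smallest p per group, and fixed lists of neuronal and non-neuronal members. Kcnc4, Kcnc2, Kcnh1, Kcnh2, Kcnh6, Kcnj2, Kcnj4, Kcnj5, Kcnj11, Kcna6, Kcnb2, Kcnf1, Kcnt2, Kcnk10, Kcnk12, Kcnip1, Kcnip2, Kcnmb2, Kcne3, Kcnq1ot1, Dpp6, Cntnap2, Barhl1, Etv1 and Rgs5 were named after their values were seen. The markers Tmem119, P2ry12, Col1a1, Col1a2, Col3a1, Pdgfra, Lum, Dcn, Pdgfrb, Cspg4 and Acta2 and the partner Adam22 were also named after their values were seen. Some genes are counted but not reported by name here.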

Additional observations from a re-analysis of the deposited data

How the results depend on the processing

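With no Kcn gene called without the replicate block, adding the block called 1 higher and 5 lower (7.98% of all genes). With the block and RLE factors 0 were higher and 5 lower (8.53% of all genes), with upper-quartile factors 1 and 5 (8.58%), with library totals alone 4 and 5 (8.11%), with no low-count filter 2 and 6 (8.13%), with a filter at a mean of 5 CPM 1 and 4 of 44 (12.2%), with limma-voom 2 and 5 (8.86%), and with DESeq2 8 and 15 (21.9%). DESeq2 without the block called 1 higher and 3 lower (3.6%). Leaving out 1 replicate pair gave 0 to 3 higher and 0 to 4 lower with the block. There were 0 of either kind without replicate 1 (0% of all genes) or without replicate 2 (0.332%), against 8.06% of all genes called without replicate 3. Leaving out 1 library without the block gave 0 of either kind (0% of all genes). The median log2 fold change of tested members, −0.04 without and −0.07 with the block, was −0.26 without and −0.22 with the block when genes under a mean of 5 CPM were dropped (44 members tested). It ranged from −0.266 to 0.039 without 1 library and from −0.20 to −0.05 without 1 pair with the block. Library totals alone moved the median of all genes from 0.02 to 0.09. None of the 6 called Kcn genes changed direction under an alternative run for it. The cause of the changed counts was not tested.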
